A study of Mus musculus with 8 samples.

Results

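The genes described here carry glucose into the cell, break it down to pyruvate and lactate, and store and release it as glycogen. There were 34 of them, chosen by name, and all 34 were found among the 35275 genes of the deposited table. They comprise 4 carriers of glucose and lactate, 9 enzymes of upper glycolysis, 4 regulators around the phosphofructokinase step, 9 enzymes from Gapdh to lactate dehydrogenase and 8 glycogen genes. Of the 34, 33 passed the filter on low values (a mean of at least 0.5 FPKM over the 8 libraries) and were tested. The exception was Aldoc.

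Glucose enters a heart muscle cell through the carriers GLUT1 and GLUT4, of which GLUT4 moves to the surface in response to insulin and contraction. Hexokinase traps it as glucose phosphate, which then goes either down glycolysis or into glycogen. Phosphofructokinase is the committed step of glycolysis and is activated by a fructose bisphosphate signal that the PFKFB enzymes make and remove. The adult ventricle takes most of its energy from fatty acids, and many of the steps above are served by a muscle form and a more widely expressed form of the same enzyme.

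The samples were heart ventricles of mice, 4 labelled RBX2iCKO and 4 labelled WT. In RBX2iCKO, Rbx2, a RING subunit of cullin ubiquitin ligases whose gene is Rnf7, was deleted in adult hearts by Mer-Cre-Mer, a Cre recombinase that tamoxifen switches on, under the cardiomyocyte αMHC promoter. All 8 samples, WT included, are labelled as tamoxifen-treated, and the labels give no age, sex, strain or interval after tamoxifen. Rnf7 had 7.53, 7.08, 6.86 and 7.13 FPKM in the RBX2iCKO ventricles, against 36.7, 35.3, 40.7 and 36.5 FPKM in the WT ventricles. Esr1, whose ligand-binding part is carried by Mer-Cre-Mer, averaged 330.5 FPKM in RBX2iCKO and 0.757 FPKM in WT, so loss of Rbx2 and presence of the active recombinase cannot be told apart in these groups.

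The unit was fragments per kilobase of transcript, scaled to the library's counted fragments (FPKM), and the libraries held 18758692 to 23043686 fragments in RBX2iCKO and 18513924 to 22558094 in WT. RBX2iCKO replicate 3 stood apart from the other libraries on the second principal component. Transcripts encoded in mitochondrial DNA took 16.9% ± 2.06 of the fragments in RBX2iCKO and 23.8% ± 1.04 in WT (SD, n = 4 each, two-sided exact permutation p = 0.0286, the smallest p that the 70 assignments allow). The labels name cardiomyocytes, but the RNA came from whole minced ventricle. Ventricular cardiomyocyte markers summed to 29529 to 34735 FPKM in RBX2iCKO and 31453 to 33620 FPKM in WT. Fibroblast markers summed to 1637 to 2637 FPKM in RBX2iCKO and 926 to 1376 FPKM in WT. Of the 10, 9 were called higher as deposited and 8 after the median-of-ratios scaling described below. Of all genes, 33.5% were called higher as deposited and 8.14% after that scaling. Endothelial markers summed to 188 to 257 FPKM in RBX2iCKO and 152 to 205 FPKM in WT. Of these 8 genes, 5 were called higher as deposited and 0 after scaling. Macrophage markers summed to 118 to 289 FPKM in RBX2iCKO and 120.5 to 179 FPKM in WT. Of these 8 genes, 2 were called higher as deposited and 0 after scaling. No fibroblast, endothelial or macrophage marker was called lower on either scale. Skeletal muscle markers summed to 5.54 to 8.44 FPKM in RBX2iCKO and 1.77 to 2.63 FPKM in WT, with Myh4 at 0 in all 8 libraries and Myh1 at 0 in the 4 RBX2iCKO libraries. Atrial markers summed to 394 to 1064 FPKM in RBX2iCKO and 4.34 to 374 FPKM in WT, with only Nppa of the 5 called, and Bmp10 at 0 in all 4 WT libraries. Adipocyte markers summed to 17.1 to 34.5 FPKM in RBX2iCKO and 14.8 to 35.7 FPKM in WT, mural markers to 229 to 372 FPKM in RBX2iCKO and 274 to 353 FPKM in WT, and erythroid markers to 341 to 3622 FPKM in RBX2iCKO and 200.1 to 540.02 FPKM in WT. The part of these shifts in the results below was not tested, and in bulk RNA fewer cells of a type and less RNA per cell cannot be told apart.

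In RBX2iCKO ventricles the carbohydrate genes moved in both directions as deposited, and the counts of higher and of lower genes both changed with scaling. As deposited, 9 of the 33 genes tested were higher in RBX2iCKO (27.3%) and 7 were lower (21.2%), by limma with Benjamini-Hochberg adjustment over 13050 genes at a threshold of 0.05. Across all genes 33.5% were called higher and 3.52% lower, and the median difference of all genes was 0.21 on the log2(FPKM + 1) scale. After median-of-ratios scaling, which sets the typical gene to no change, 1 of the 33 genes was higher and 14 were lower. Over all genes 8.14% were then higher and 11.6% lower. The scaling divided RBX2iCKO libraries by 1.08 to 1.13 and WT libraries by 0.849 to 0.946. It thus lowered the differences of all genes tested, so a move toward fewer higher and more lower calls was built in. Pfkp was the gene called higher on both scales. Fbp2, Pfkfb1, Phkg1, Slc2a4, Hk2, Pygm and Ldhb were called lower on both. The other 7 genes lower after scaling were Pfkm, Aldoa, Pkm, Ldha, Gys1, Pygb and Phka1. The calls of Aldoa, Ldha and Gys1 held in 1, 4 and 2 of the 8 scaled fits that left out 1 library, and that of Pygb was lost without RBX2iCKO replicate 1. The median difference of the 33 genes was 0.02 as deposited and -0.25 after scaling, against 0.21 and 0.00 for all genes, and 12 of the 33 lay above the median of all genes. Together the 34 genes took 1.75% to 1.80% of the fragments in RBX2iCKO and 1.69% to 1.74% in WT. Those totals include the mitochondrial-encoded fragments, 16.9% in RBX2iCKO and 23.8% in WT. The ranges therefore do not show a larger share of the remaining RNA in RBX2iCKO.

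**Figure D1:**
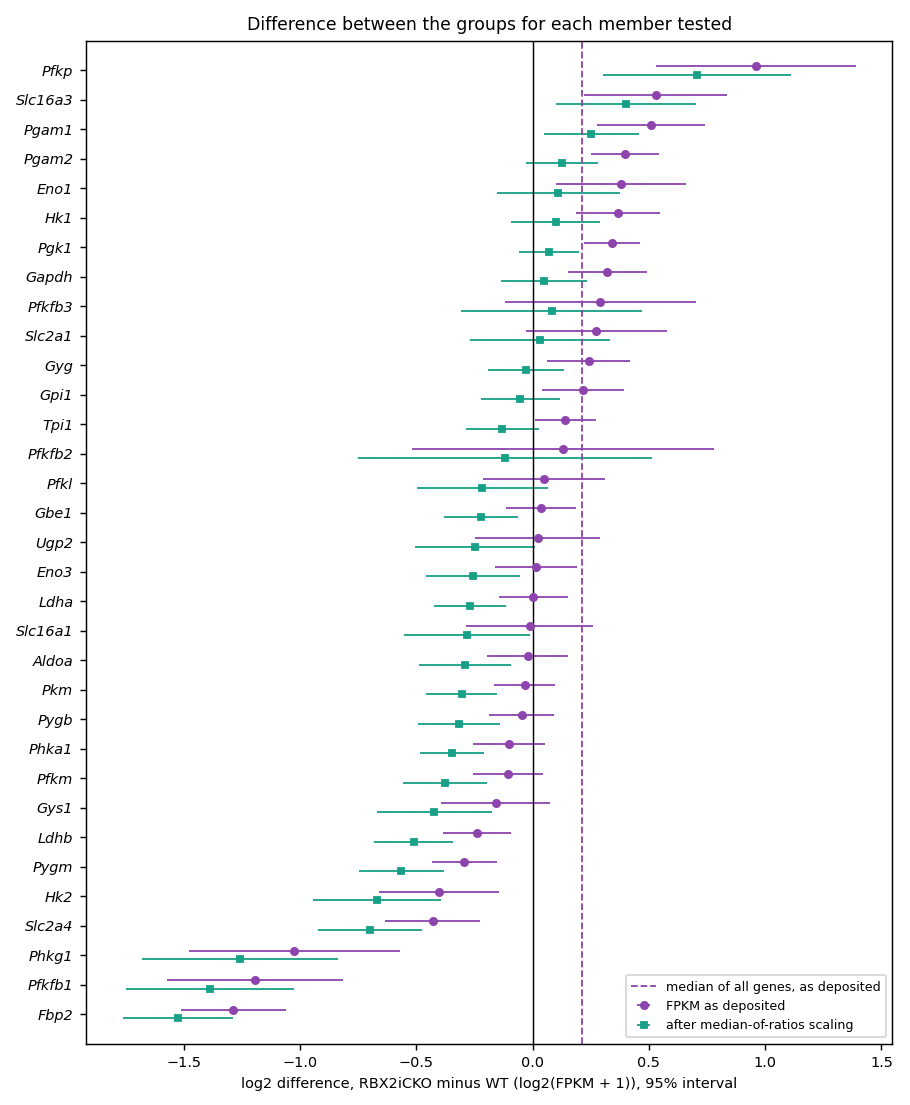
Differences of the 33 carbohydrate genes tested, as RBX2iCKO minus WT log2(FPKM + 1), ordered by size, with 95% confidence intervals, as deposited (circles) and after median-of-ratios scaling (squares), and a dashed line for the median of all genes as deposited, 0.21. Fbp2 at -1.29, Pfkfb1 at -1.19 and Phkg1 at -1.03 lie farthest below 0 and Pfkp at 0.96 farthest above it, and the scaled points lie left of the deposited ones.

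The abundance of these transcripts spanned several orders of magnitude. The values are per length, but levels of different genes compare only roughly. The length recovered from the values matched the longest annotated transcript for 25 of the 34 genes. Gapdh was the highest, with a mean of 2731 FPKM in RBX2iCKO and 2182 FPKM in WT, followed in WT by Aldoa, Ldhb and Eno3. At the other end, Slc16a3, Pfkfb3 and Pfkfb1 averaged 1.29, 4.04 and 1.72 FPKM in RBX2iCKO, against 0.57, 3.03 and 5.30 FPKM in WT. Among the genes called as deposited, the 5 that differed most in fold, Pfkfb1, Fbp2, Slc16a3, Phkg1 and Pfkp, averaged at most 22.6 FPKM in either group. Those above 100 FPKM in both groups, Slc2a4, Pgam2, Pgk1, Gapdh, Pygm and Ldhb, differed 1.18-fold to 1.34-fold. The spread between libraries was also wider in RBX2iCKO, with a median coefficient of variation over the 33 genes of 9.81% against 6.01% in WT. RBX2iCKO replicate 3 was the highest of its group for 15 of the 33.

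**Figure D2:**
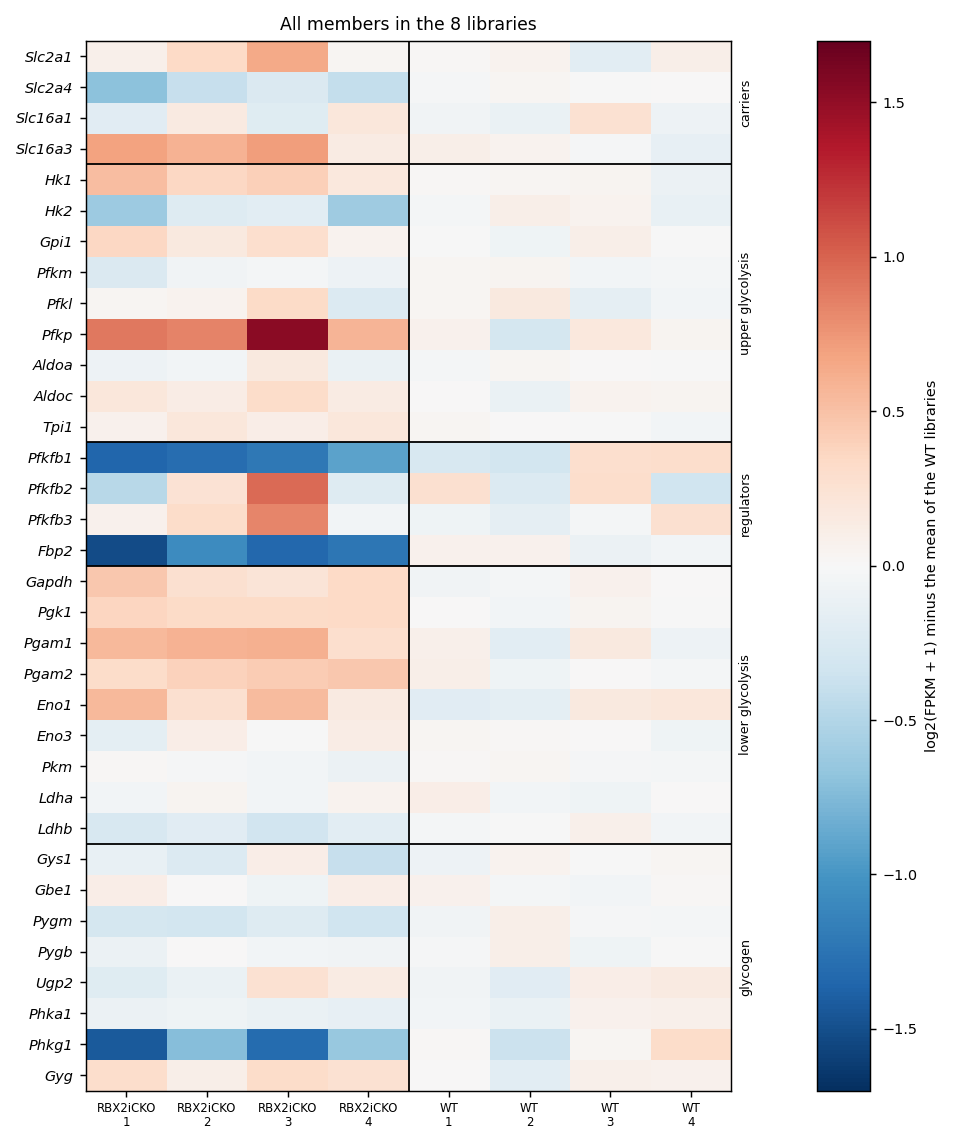
Each carbohydrate gene in each library, as log2(FPKM + 1) minus the mean of the 4 WT libraries, RBX2iCKO libraries on the left and WT libraries on the right, genes ordered by role. Fbp2, Pfkfb1 and Phkg1 are low in all 4 RBX2iCKO libraries, and Pfkp is high in all 4 with its highest value in replicate 3.

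Among the carriers, the insulin-responsive glucose carrier Slc2a4 (GLUT4) was lower in RBX2iCKO and the basal carrier Slc2a1 (GLUT1) was not called. Slc2a4 (chr11:69942539-69948188, minus strand, mm10) had 84.8, 105, 116 and 104 FPKM in the RBX2iCKO ventricles, against 135, 140.5, 137 and 138 FPKM in the WT ventricles. Every RBX2iCKO library was below every WT library. It fell 1.34-fold, a log2 difference of -0.43 (SE 0.09, limma adjusted p = 0.00837), and -0.70 after scaling. Slc2a1 had 7.55, 9.22, 11.5 and 7.25 FPKM in RBX2iCKO and 7.21, 7.39, 6.11 and 7.63 FPKM in WT. The RBX2iCKO values reached above WT in replicates 2 and 3 only, and the difference of 0.27 had an interval of -0.03 to 0.58.

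The lactate carriers also differed from each other. Slc16a3 (MCT4), the exporter typical of glycolytic cells, was a scarce transcript with 42 to 136 recovered fragments per library. It had 1.51, 1.36, 1.55 and 0.726 FPKM in RBX2iCKO and 0.673, 0.629, 0.551 and 0.429 FPKM in WT. All 4 RBX2iCKO values were above the WT values, 2.26-fold in the means, with a log2 difference of 0.53 (SE 0.14, limma adjusted p = 0.0175). After scaling the difference was 0.40 with a limma adjusted p of 0.0618. Slc16a1 (MCT1), the main lactate carrier of heart muscle, ranged over 56.6 to 74.7 FPKM in RBX2iCKO and 60.3 to 78.5 FPKM in WT.

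Upper glycolysis, from hexokinase to triose phosphate isomerase, had 8 genes tested, of which Hk1 and Pfkp were higher, Hk2 was lower and 5 were not called. As deposited 25.0% were thus higher and 12.5% lower, against 33.5% and 3.52% of all genes. The hexokinases moved in opposite directions as deposited. Hk2, the insulin-regulated form of muscle, had 44.8, 59.4, 60.7 and 45.0 FPKM in RBX2iCKO, against 67.3, 74.1, 72.1 and 63.0 FPKM in WT. The groups did not overlap, and Hk2 fell 1.32-fold (log2 difference -0.40, SE 0.12, limma adjusted p = 0.0251; -0.67 after scaling). Hk1, the widely expressed form, had 78.5, 70.03, 72.7 and 61.8 FPKM in RBX2iCKO and 55.4, 55.7, 56.2 and 50.9 FPKM in WT. Its lowest RBX2iCKO library was above its highest WT library, and the difference of 0.37 (SE 0.08) had a limma adjusted p of 0.00963. After scaling Hk1 differed by 0.10 with a limma adjusted p of 0.46, so its call rested on the deposited scale. The Hk2 call was lost when RBX2iCKO replicate 1 or 4 or WT replicate 2 or 3 was left out, with an adjusted p of up to 0.0663.

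Phosphofructokinase has a muscle, a liver and a platelet form, encoded by Pfkm, Pfkl and Pfkp, and the platelet form was higher in RBX2iCKO. Pfkp (chr13:6579768-6648777, minus strand, mm10) had 20.8, 19.9995, 33.1 and 16.5 FPKM in RBX2iCKO, against 11.4, 8.53, 12.4 and 11.1 FPKM in WT. Replicate 3 was the highest RBX2iCKO library, and even the lowest RBX2iCKO value was above all WT values. Pfkp rose 2.08-fold, with a log2 difference of 0.96 (SE 0.19, interval 0.53 to 1.39, limma adjusted p = 0.00684) and 0.70 after scaling (limma adjusted p = 0.0242). With each library left out in turn the difference ran from 0.77 to 1.09. After scaling its call was lost without WT replicate 1, 2 or 4. Exons of Pfkp overlap those of Pitrm1 on the opposite strand over 5.58% of their length, and strand use in counting is not given in the sources used here. Overlaps with other genes also exceeded 5% of exon length for Gpi1 and Gys1 (opposite strand) and for Pfkfb2, Pfkm and Pkm (same strand), and reads from those stretches cannot be told apart by gene.

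Pfkm, the muscle form, remained the most abundant of the 3, with 302 to 349.6 FPKM in RBX2iCKO and 345 to 369.6 FPKM in WT. It was called lower after scaling only, with a log2 difference of -0.11 as deposited and -0.38 after scaling (limma adjusted p = 0.0117). Pfkl ranged over 32.0 to 47.2 FPKM in RBX2iCKO and 33.7 to 42.2 FPKM in WT.

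The promoter of Pfkp is shown because it is the gene called higher on both scales and because its window holds several GC boxes, the binding motif of SP-family factors. The window runs from 250 bases before to 50 bases after the start in RefSeq (GRCm38.p6, chr13:6648722-6649021, minus strand, printed 5′ to 3′), and capitals mark GGGCGG on either strand.
Pfkp: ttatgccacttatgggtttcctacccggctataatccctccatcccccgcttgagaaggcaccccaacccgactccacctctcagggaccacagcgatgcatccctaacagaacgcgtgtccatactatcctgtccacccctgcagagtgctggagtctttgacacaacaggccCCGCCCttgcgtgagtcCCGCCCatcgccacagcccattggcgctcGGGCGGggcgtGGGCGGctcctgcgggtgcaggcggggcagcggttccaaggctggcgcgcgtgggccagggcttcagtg

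Of the remaining upper enzymes, none was called higher or lower as deposited, and Aldoc was not tested. Gpi1 (glucose phosphate isomerase) had 125 to 153 FPKM in RBX2iCKO and 113 to 128 FPKM in WT, with a limma adjusted p of 0.054, and it was called without RBX2iCKO replicate 4. Aldoa, the muscle aldolase, had 1482 to 1808 FPKM in RBX2iCKO and 1569 to 1637 FPKM in WT, with a difference of -0.02 (interval -0.19 to 0.15) as deposited and -0.29 after scaling (limma adjusted p = 0.044). Tpi1 (triose phosphate isomerase) had 386, 419.8, 397 and 421 FPKM in RBX2iCKO and 377, 369.5, 367 and 358 FPKM in WT. Its groups did not overlap, but the difference of 0.14 had a limma adjusted p of 0.0845, and after scaling it was -0.13. Aldoc, the brain aldolase, lay near the detection limit at 0.23, 0.171, 0.335 and 0.188 FPKM in RBX2iCKO and 0.0775, 0, 0.125 and 0.111 FPKM in WT. The count of 0 in WT replicate 2 allows up to 0.0534 FPKM (3 fragments), a limit that covers counting error only.

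The regulators held the largest decreases. Fbp2 is the muscle fructose bisphosphatase, which runs the phosphofructokinase step in reverse. Fbp2 (chr13:62836877-62858422, minus strand, mm10) had 4.06, 5.90, 4.73 and 5.19 FPKM in RBX2iCKO, against 14.3, 14.2, 12.5 and 13.0 FPKM in WT. All RBX2iCKO libraries lay far below all WT libraries, from 101 to 388 recovered fragments each. It fell 2.72-fold, with a log2 difference of -1.29 (SE 0.10, interval -1.51 to -1.06, limma adjusted p = 0.000318) and -1.53 after scaling.

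Pfkfb1, a PFKFB enzyme best known from liver and skeletal muscle, had 1.43, 1.51, 1.66 and 2.28 FPKM in RBX2iCKO, against 4.11, 3.97, 6.53 and 6.60 FPKM in WT. The groups did not overlap. WT replicates 3 and 4 were above WT replicates 1 and 2, a split that follows the title-number series described below. It fell 3.08-fold, with a log2 difference of -1.19 (SE 0.17, limma adjusted p = 0.0022) and -1.39 after scaling. Pfkfb2, the main heart PFKFB enzyme, had 7.24, 12.5, 21.3 and 8.83 FPKM in RBX2iCKO and 12.8, 8.75, 13.0 and 8.07 FPKM in WT. Its RBX2iCKO replicate 3 was the highest library and replicate 1 the lowest, and the interval of the difference, -0.52 to 0.78, was wide. Pfkfb3, the inducible form, had 2.88 to 6.12 FPKM in RBX2iCKO and 2.60 to 3.82 FPKM in WT, again highest in RBX2iCKO replicate 3.

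The Fbp2 promoter window is shown because the gene had the smallest adjusted p of the 33 and holds an E-box (CACGTG) near its start. It comes from RefSeq (GRCm38.p6, chr13:62858351-62858650, minus strand, printed 5′ to 3′), and capitals mark the E-box, which begins at position -42 and also contains the hypoxia response core ACGTG on both strands.
Fbp2: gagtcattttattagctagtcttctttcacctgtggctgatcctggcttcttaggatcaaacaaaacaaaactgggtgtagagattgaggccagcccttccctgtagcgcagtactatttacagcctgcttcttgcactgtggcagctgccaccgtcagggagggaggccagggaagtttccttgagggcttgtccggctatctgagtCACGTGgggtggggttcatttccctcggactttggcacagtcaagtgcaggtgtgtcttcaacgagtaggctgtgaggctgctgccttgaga

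Lower glycolysis had 5 of its 9 genes called higher as deposited (55.6%, against 33.5% of all genes) and none after scaling (8.14% of all genes). It had 1 called lower as deposited (11.1%, against 3.52% of all genes) and 3 after scaling (33.3%, against 11.6%). The genes called higher as deposited were Gapdh, Pgk1, Pgam1, Pgam2 and Eno1. Gapdh (glyceraldehyde phosphate dehydrogenase), often used as a loading control, had 2996, 2629, 2537 and 2761 FPKM in RBX2iCKO and 2100.4, 2131, 2299 and 2199 FPKM in WT. All RBX2iCKO libraries were above all WT libraries, by 1.25-fold in the means (log2 difference 0.32, SE 0.08, limma adjusted p = 0.0119). After scaling the difference was 0.05. Pgk1 (phosphoglycerate kinase) had 226, 219.8, 220.2 and 221 FPKM in RBX2iCKO and 176, 169, 179.9 and 175 FPKM in WT. It was the steadiest of these genes between libraries, with a difference of 0.34 (SE 0.05, limma adjusted p = 0.00309) as deposited and 0.07 after scaling.

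Both phosphoglycerate mutases were higher as deposited. Pgam2, the muscle form, had 525, 551, 567 and 579 FPKM in RBX2iCKO and 453, 399.5, 421 and 413 FPKM in WT (log2 difference 0.40, SE 0.07, limma adjusted p = 0.00341). Pgam1, the widely expressed form, had 22.5, 23.2, 23.4 and 18.5 FPKM in RBX2iCKO and 16.1, 13.2, 17.1 and 14.1 FPKM in WT (log2 difference 0.51, SE 0.10, limma adjusted p = 0.00715). Neither pair of groups overlapped, and after scaling the differences were 0.13 and 0.25 with neither called. Eno1, the widely expressed enolase, had 85.8, 71.0, 85.2 and 64.9 FPKM in RBX2iCKO and 50.8, 52.1, 65.6 and 66.7 FPKM in WT. Its groups overlapped, since RBX2iCKO replicate 4 was below WT replicates 3 and 4, and its call (limma adjusted p = 0.0405) was lost without RBX2iCKO replicate 1, 2 or 3 or WT replicate 1 or 2. Eno3, the muscle enolase, had 659 to 807 FPKM in RBX2iCKO and 706 to 762 FPKM in WT, with a difference of 0.01 (interval -0.16 to 0.19).

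The last steps were not called higher. Pkm (pyruvate kinase) had 444 to 483 FPKM in RBX2iCKO and 463 to 485 FPKM in WT, with a difference of -0.03 as deposited and -0.31 after scaling (limma adjusted p = 0.0148). Ldhb, the heart form of lactate dehydrogenase, had 814, 858, 785 and 869.7 FPKM in RBX2iCKO, against 958, 978, 1046 and 949.8 FPKM in WT. The groups did not overlap, and it fell 1.18-fold (log2 difference -0.24, SE 0.07, limma adjusted p = 0.021; -0.51 after scaling), a call lost without WT replicate 3 (adjusted p = 0.0591). Ldha, the muscle form, had 334 to 360.5 FPKM in RBX2iCKO and 328 to 376 FPKM in WT. Its difference was 0.00 (interval -0.15 to 0.15) as deposited and -0.27 after scaling, where it was called lower (limma adjusted p = 0.025). Gapdh, Aldoa, Pgk1, Eno1 and Ldha have processed pseudogenes in the mouse genome, and how reads that match several places were assigned is not given in the sources used here.

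Of the 8 glycogen genes, Pygm and Phkg1 were lower as deposited (25.0%, against 3.52% of all genes) and Gyg was higher (12.5%, against 33.5%). The other 5 were not called, among them Pygb and Phka1, which belong to the breakdown arm as Pygm and Phkg1 do. After scaling none was higher (8.14% of all genes) and 5 were lower (62.5%, against 11.6%). Glycogen is built on the primer protein glycogenin (Gyg) by glycogen synthase (Gys1) and the branching enzyme (Gbe1), from a sugar donor that Ugp2 makes. It is broken down by glycogen phosphorylase, which phosphorylase kinase switches on.

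Pygm, the muscle phosphorylase (chr19:6384399-6398459, plus strand, mm10), had 346, 342, 363 and 334 FPKM in RBX2iCKO, against 408, 457, 419 and 416 FPKM in WT. The groups were well apart, and it fell 1.23-fold, with a log2 difference of -0.29 (SE 0.06, limma adjusted p = 0.00871) and -0.57 after scaling. Pygb, the brain phosphorylase, had 236 to 255 FPKM in RBX2iCKO and 241 to 273 FPKM in WT. It was called lower after scaling only, at -0.32 against -0.05 as deposited.

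Phkg1, the muscle catalytic subunit of phosphorylase kinase (chr5:129863421-129898549, minus strand, mm10), had 3.37, 6.11, 3.75 and 6.55 FPKM in RBX2iCKO, against 10.9, 8.16, 11.1 and 13.5 FPKM in WT. RBX2iCKO replicates 1 and 3 were the lowest, and all 4 were below the lowest WT library. It fell 2.21-fold, with a log2 difference of -1.03 (SE 0.20, interval -1.48 to -0.57, limma adjusted p = 0.00648) and -1.26 after scaling. Exons of Sumf2 on the opposite strand overlap 9.68% of its exon length. Phkg2, another catalytic subunit of phosphorylase kinase, is among the other glycogen genes below and was called higher, as deposited only. Phka1, the muscle regulatory subunit of the same kinase, had 8.14 to 8.60 FPKM in RBX2iCKO and 8.31 to 9.71 FPKM in WT, at -0.10 as deposited and, called lower, -0.35 after scaling.

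On the building side, Gyg had 90.7, 79.3, 91.3 and 88.2 FPKM in RBX2iCKO and 74.2, 65.1, 78.5 and 77.6 FPKM in WT. The groups just failed to overlap, and the difference was 0.24 (SE 0.08, limma adjusted p = 0.0407) as deposited but -0.028 after scaling. Of the 8 fits that left out 1 library, those without RBX2iCKO replicate 2 and without WT replicate 3 kept that call and the others lost it. Gys1 had 26.3 to 38.0 FPKM in RBX2iCKO and 32.8 to 36.5 FPKM in WT, with a difference of -0.16 as deposited and, called lower, -0.42 after scaling. As deposited, Gys1 was called lower without RBX2iCKO replicate 3, its highest library. Gbe1 had 16.4 to 18.8 FPKM in RBX2iCKO and 16.7 to 18.2 FPKM in WT. Ugp2 had 81.2 to 113 FPKM in RBX2iCKO and 82.0 to 105 FPKM in WT, and neither of these last genes was called on either scale.

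**Figure D3:**
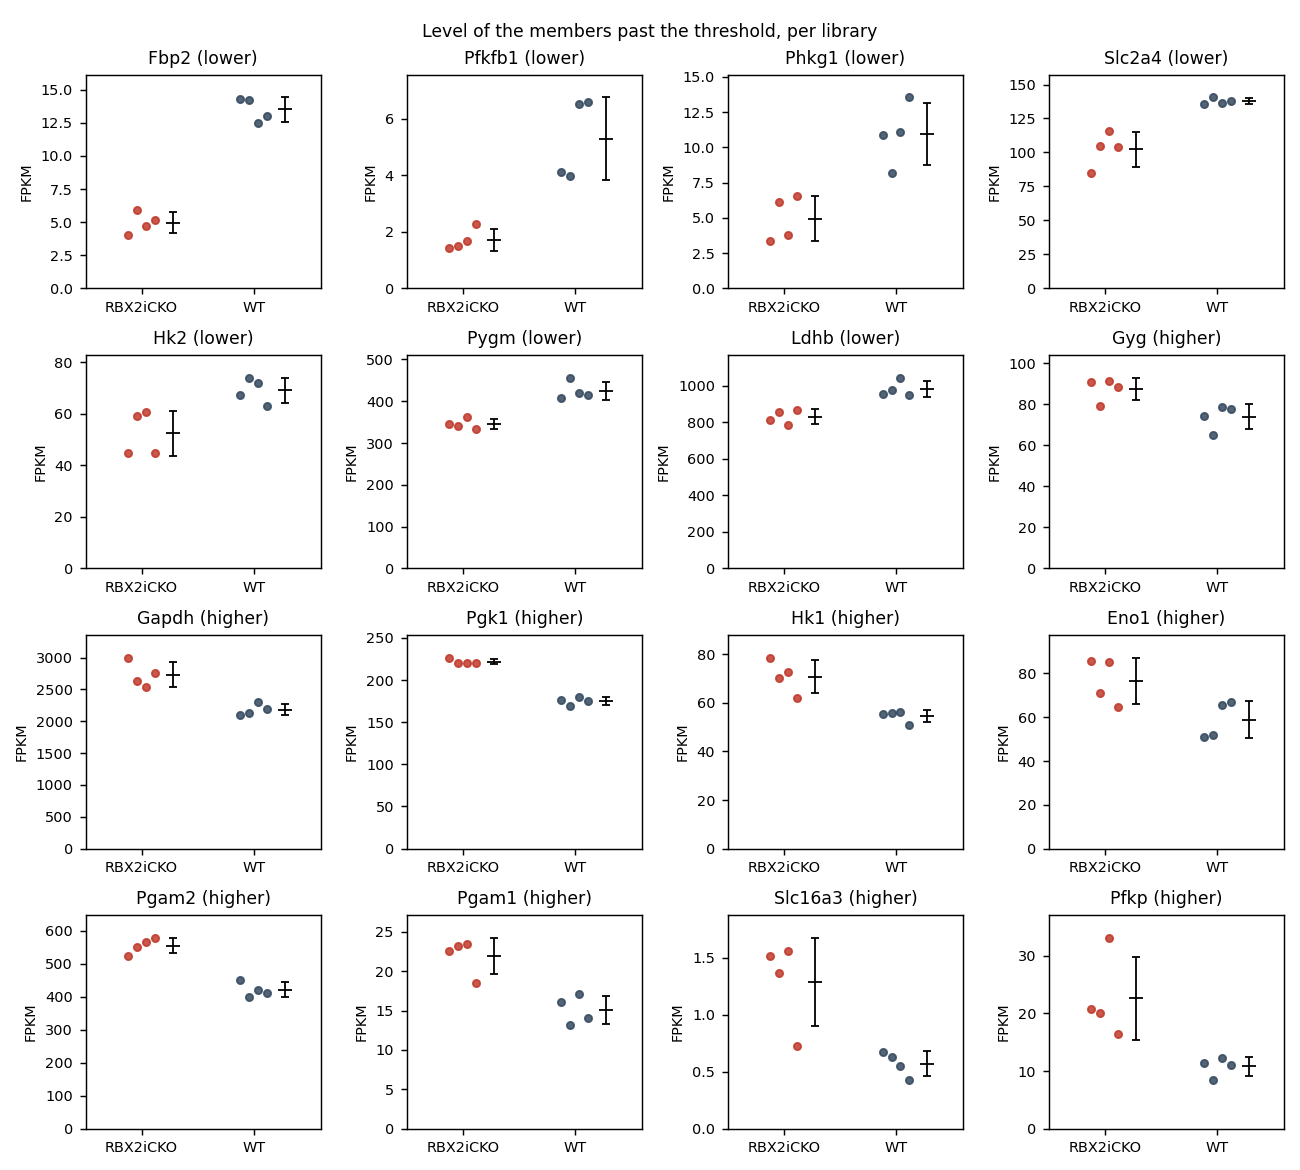
FPKM per library of the carbohydrate genes called on the deposited scale, with RBX2iCKO points left of WT points and bars for the mean and SD (n = 4 each). Groups are apart in every panel except Eno1, where RBX2iCKO replicate 4 at 64.9 FPKM lies below 2 WT libraries. The panels were chosen by their call, which favours groups that are apart. The share of all tested genes with groups apart is not given here.

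The Pygm promoter window is shown as a muscle gene of the glycogen arm called lower on both scales. It comes from RefSeq (GRCm38.p6, chr19:6384158-6384457, plus strand, printed 5′ to 3′), and capitals mark a minus-strand match of ACGTG.
Pygm: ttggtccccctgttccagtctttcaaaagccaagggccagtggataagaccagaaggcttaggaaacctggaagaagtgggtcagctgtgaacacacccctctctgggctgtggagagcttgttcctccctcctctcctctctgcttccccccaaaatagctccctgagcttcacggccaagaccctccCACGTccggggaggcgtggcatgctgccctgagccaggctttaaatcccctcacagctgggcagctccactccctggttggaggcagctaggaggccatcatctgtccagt

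The 5 motifs below were searched on both strands of the 300-base windows of RefSeq, which held 51 windows of 33 of the 34 genes. ACGTG lay in 24 of the 51 windows, or 47.1%, against 19.6% of the 32851 mouse windows. CACGTG, whose every match also contains ACGTG, lay in 7 of the 51, or 13.7%, against 7.15% of all. GGGCGG lay in 27 of the 51, or 52.9%, against 35.7% of all. TATAAA lay in 2 of the 51, or 3.92%, against 13.6% of all, and the core motif of MEF2 factors in 2 of the 51 against 3.69% of all. Several windows belong to the same gene and overlap, no test was made, and a match of letters is not a bound site. ACGTG was present in genes called higher such as Hk1 and Gapdh and in genes called lower such as Hk2, Fbp2 and Pygm.

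The share of 1 enzyme form within a pair was compared in each library, because such a ratio does not depend on how the library was scaled. In 7 of 11 pairs the groups did not overlap. Each had a two-sided exact permutation p of 0.0286, the smallest possible, and 0.0449 after Benjamini-Hochberg adjustment over the 11 pairs. No pair could pass alone, since the adjusted p fell below the threshold only because all 7 reached the smallest p. Aldoc, with 0 to 18 fragments per library, was in 1 of them, and Pfkm is in more than 1 of the 11 pairs. How often other gene pairs have groups apart was not determined. The forms whose share was larger in RBX2iCKO were Hk1, Slc2a1, Pfkp, Aldoc, Ldha, Pygb and Pfkfb2.

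In percentage points the hexokinase difference was exceeded only by that of the scarcer Pfkfb1 beside Pfkfb2, at -19.8. The pairs that passed all had the same p, so the test does not rank them. Hk2 made up 36.3%, 45.9%, 45.5% and 42.1% of Hk1 plus Hk2 in RBX2iCKO, against 54.8%, 57.1%, 56.2% and 55.3% in WT. Hk2 was thus the larger part in every WT library and the smaller part in every RBX2iCKO library, a difference of -13.4 percentage points. Among glucose carriers, Slc2a1 took 8.17%, 8.08%, 9.06% and 6.51% of Slc2a1 plus Slc2a4 in RBX2iCKO, against 5.06%, 5.0002%, 4.27% and 5.25% in WT. GLUT4 remained the bulk of the pair in all 8 libraries.

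Pfkp took 6.45%, 5.53%, 8.65% and 4.67% of Pfkp plus Pfkm in RBX2iCKO, against 3.02%, 2.26%, 3.46% and 3.09% in WT. Pygb took 41.5% ± 1.20 of Pygb plus Pygm in RBX2iCKO and 37.4% ± 0.644 in WT (SD, n = 4 each). Ldha took 29.5% ± 0.297 of Ldha plus Ldhb in RBX2iCKO and 26.1% ± 1.82 in WT (SD, n = 4 each). The lactate dehydrogenase share was nearly the same in the 4 RBX2iCKO libraries, 29.2% to 29.9%, and more spread in WT, 23.9% to 28.2%. Pfkfb1 took 13.7% ± 5.91 of Pfkfb1 plus Pfkfb2 in RBX2iCKO and 33.5% ± 8.58 in WT (SD, n = 4 each), and the trace share of Aldoc beside Aldoa was 0.0144% in RBX2iCKO and 0.00491% in WT.

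The other 4 pairs did not pass. Pgam1 beside Pgam2 was 3.80% in RBX2iCKO and 3.46% in WT (exact permutation adjusted p = 0.314), and Pfkl beside Pfkm was 10.6% in RBX2iCKO and 9.53% in WT (0.283, same test). Eno1 beside Eno3 was 9.36% in RBX2iCKO and 7.35% in WT, and Slc16a3 beside Slc16a1 was 2.01% in RBX2iCKO and 0.872% in WT, with exact permutation adjusted p of 0.175 and 0.118. With 4 libraries against 4 the threshold was barely within reach. Pairs pass together or not at all, so a fit with fewer of them at the smallest p has 0 passing. When 1 library was left out, 0 pairs passed in 7 of the 8 fits, and every pair kept its direction in all 8. Without RBX2iCKO replicate 4, 7 pairs passed, but with Slc16a3 beside Slc16a1 among them and without Ldha beside Ldhb, which passed in none of the 8.

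**Figure D4:**
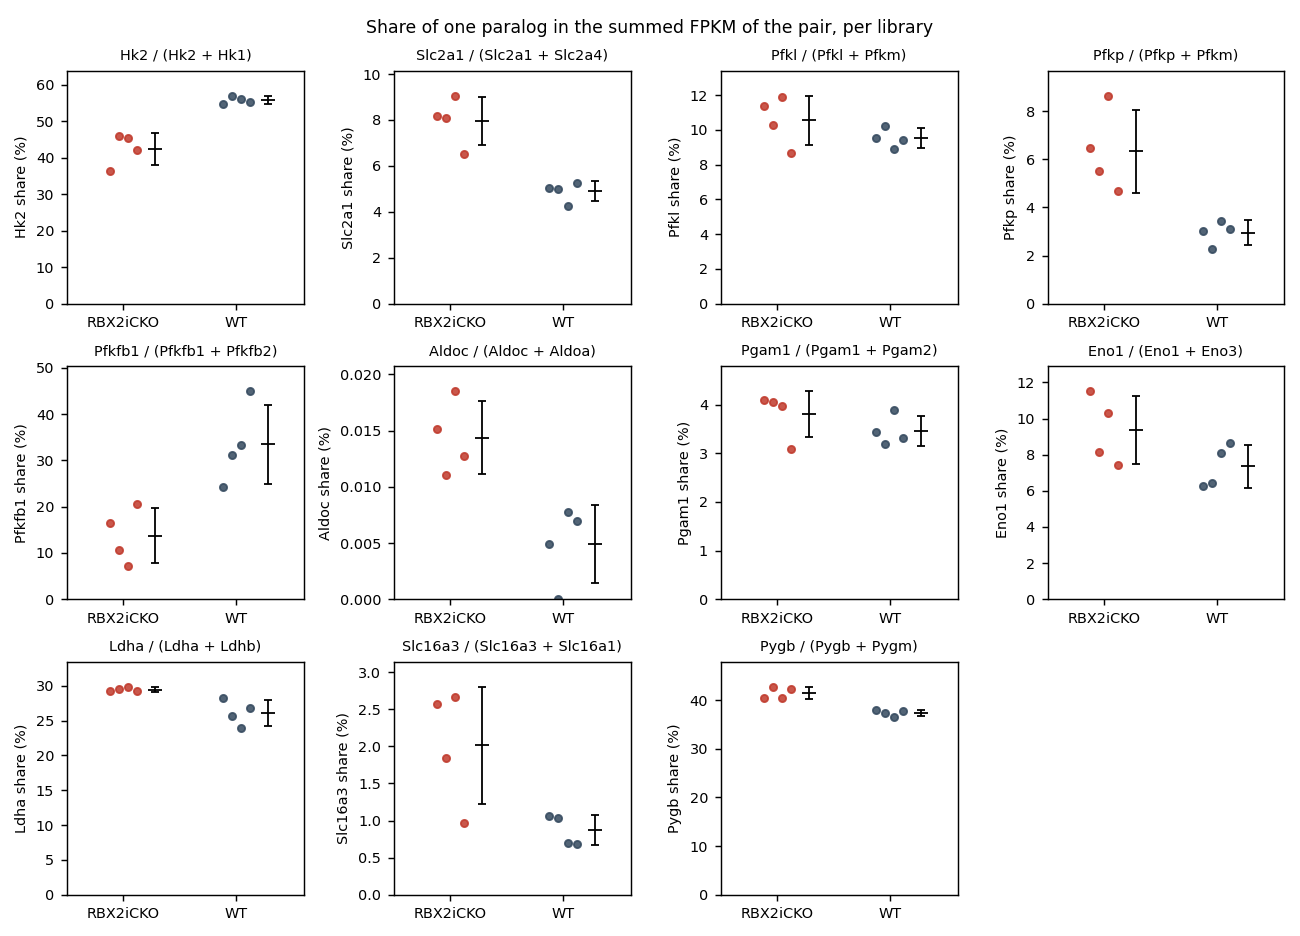
Share of the first-named form in each pair of carbohydrate enzymes or carriers, in percent of their summed FPKM, with RBX2iCKO libraries left of WT libraries and bars for the mean and SD (n = 4 each). The Hk2 share sits between 36.3% and 45.9% in RBX2iCKO and between 54.8% and 57.1% in WT.

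Genes around these pathways were read from 7 further lists that share no gene with the 34. Their counts are to be set against all genes. Of these, 33.5% were called higher and 3.52% lower as deposited, and 8.14% higher and 11.6% lower after scaling. Pyruvate entry into mitochondria had 6 of 15 genes lower (40.0%) and 1 higher (6.67%) as deposited. After scaling 12 were lower (80.0%) and 1 was higher (6.67%). The higher gene of this list was Pdk3, a kinase that switches pyruvate dehydrogenase off. Pdk3 had 5.49, 3.73, 2.94 and 3.88 FPKM in RBX2iCKO and 1.43, 0.633, 1.22 and 1.32 FPKM in WT, a 3.48-fold rise (log2 difference 1.21, SE 0.17, limma adjusted p = 0.00223). Pdp2, the phosphatase that switches the complex on, fell to 5.93 FPKM in RBX2iCKO, against 8.70 FPKM in WT (limma adjusted p = 0.00567). Pdk2, another kinase of the complex, averaged 171 FPKM in RBX2iCKO and 211 FPKM in WT, and Dld, its dihydrolipoyl dehydrogenase, 164 FPKM in RBX2iCKO and 201 FPKM in WT, both called lower. The NADH shuttles that carry the electrons of glycolysis into mitochondria had 4 of 10 genes lower and 2 higher, and 8 lower and 0 higher after scaling. The aspartate aminotransferase Got1 fell by 0.43 on the log2 scale (limma adjusted p = 0.018). Gpd1l, the gene of smallest p in that list, rose by 0.40 (limma adjusted p = 0.00435) and was not called after scaling (limma adjusted p = 0.233).

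The other glycogen genes had 4 of 17 higher (23.5%, against 33.5% of all genes) and 0 lower as deposited, and 1 higher and 7 lower after scaling. Their median difference was -0.03 as deposited, against 0.21 for all genes. Ppp1r3c, which targets the phosphatase PP1 to glycogen, averaged 54.9 FPKM in RBX2iCKO and 35.9 FPKM in WT (limma adjusted p = 0.00348, and 0.0629 after scaling). Pygl, the liver phosphorylase, averaged 3.97 FPKM in RBX2iCKO and 1.995 FPKM in WT (limma adjusted p = 0.00804), and it was the gene of the list still called higher after scaling. Pygl was thus higher while the muscle phosphorylase Pygm was lower, and the level of Pygl stayed far under that of Pygm. Phkg2, a catalytic subunit of phosphorylase kinase, averaged 4.67 FPKM in RBX2iCKO and 2.74 FPKM in WT (limma adjusted p = 0.0319). Its groups overlapped, and it was not called after scaling (limma adjusted p = 0.134). The muscle catalytic subunit Phkg1, called lower, averaged 4.94 FPKM in RBX2iCKO and 10.9 FPKM in WT.

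Other genes of glycolysis and gluconeogenesis had 3 of 18 higher as deposited (16.7%, against 33.5% of all genes). After scaling 2 were higher (11.1%) and 4 lower (22.2%). Hif1a, a hypoxia-inducible activator of glycolytic genes, had 28.8, 21.8, 21.3 and 20.9 FPKM in RBX2iCKO and 13.2, 12.7, 12.6 and 14.4 FPKM in WT. Its groups were far apart, 1.76-fold, with a log2 difference of 0.76 (limma adjusted p = 0.00205) and 0.50 after scaling.

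Glucose transport had 1 of 11 genes lower (9.09%) and 0 higher, and 3 lower (27.3%) and 0 higher after scaling. The gene lower was the monocarboxylate carrier Slc16a7 (MCT2), at 2.12 FPKM in RBX2iCKO and 3.63 FPKM in WT (limma adjusted p = 0.00411). Insulin and AMPK signalling had 3 of 15 higher and 1 lower, and 1 higher and 5 lower after scaling. Prkag2, the AMPK regulatory subunit whose mutations in people cause glycogen storage in the heart, averaged 13.4 FPKM in RBX2iCKO and 8.11 FPKM in WT (log2 difference 0.66, limma adjusted p = 0.00245). Akt2, the insulin-signalling kinase, averaged 38.7 FPKM in RBX2iCKO and 47.5 FPKM in WT (limma adjusted p = 0.0208). Irs1 and Prkab2 were called higher as deposited only, with log2 differences of 0.47 and 0.41 (limma adjusted p = 0.00478 and 0.00567). The pentose phosphate, hexosamine and polyol genes had 4 of 17 higher (23.5%, against 33.5% of all genes) and 1 lower (5.88%). After scaling 0 were higher and 4 lower (23.5%). The gene lower as deposited, Sord (sorbitol dehydrogenase), averaged 57.4 ± 5.30 FPKM in RBX2iCKO and 85.5 ± 4.16 FPKM in WT (SD, n = 4 each, limma adjusted p = 0.00205).

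**Figure D5:**
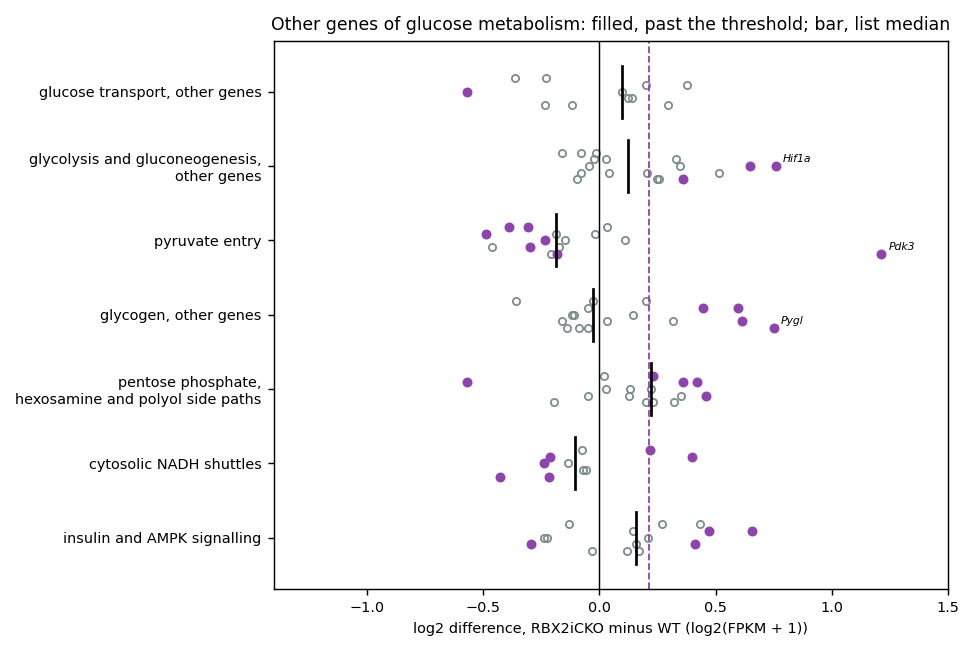
Log2 differences (RBX2iCKO minus WT, FPKM + 1, as deposited) of the tested genes in each list around the carbohydrate pathways, with filled points past the threshold, black bars for list medians and a dashed line for the median of all genes at 0.21. Pdk3 at 1.21 lies farthest right, away from the 6 lower genes of pyruvate entry.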

How the data were processed

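PolyA RNA of 8 tamoxifen-treated ventricles was sequenced. Groups come from the genotype label, and replicate numbers follow the order of deposit and only name libraries. The labels do not state that libraries are separate mice, and the p-values therefore cover spread among these libraries that may be only technical.

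The authors deposited FPKM values per gene. Per the submitters' processing notes the build is mm10. No aligner, counter or strand setting is given in the sources used here. Because FPKM is relative to the library total, abundant transcripts move all other values. Whole fragments were recovered (tolerance 0.01) for 100% of tested genes, and 1 fragment in 1 kilobase is worth 0.0434 to 0.054 FPKM. Within groups, libraries differed beyond counting noise.

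Symbols and coordinates come from GENCODE M21 (same build). Genes with a mean of at least 0.5 FPKM (13050) were tested on log2(FPKM + 1) with limma 3.58.1 in R 4.3.3 (eBayes with trend), two-sided, Benjamini-Hochberg threshold 0.05. Log2 differences are RBX2iCKO minus WT and understate changes of low genes. Folds are ratios of mean FPKM. Shares within pairs and library measures used two-sided exact permutation tests over 70 assignments. Alternatives were other pseudocounts (0.1), filters (5 FPKM or none), scaling, mitochondrial genes removed, the title-number series as covariate and libraries left out. Removing mitochondrial fragments from the denominator, and leaving out libraries after scaling, were added after seeing the data. Oga, of the hexosamine list, was not matched, and 1 listed gene outside the members is not reported here.

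The members and lists were chosen with earlier results of these data known. All members are accounted for. Members called or not overlapping have per-library values. Genes named from the other lists are among the 4 of smallest p in their list, but not all of those 4 are named. Plots were drawn with matplotlib 3.10.9. Tables used scipy 1.17.1, numpy 2.4.6 and pandas 2.3.3 in Python 3.11.15.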

Additional observations from a re-analysis of the deposited data

Results flagged for a closer look

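Single libraries lay far from the other 3 of their group for 4 of the 92 sets of 4 values examined (the members, Rnf7 and the shares within pairs, in each group), where chance gives about 4.6. The lactate carrier Slc16a1 was highest in WT replicate 3, at 78.5 FPKM, with the other WT libraries at 60.3 to 62.4. Hexokinase Hk1 was lowest in WT replicate 4, at 50.9 FPKM, with the others at 55.4 to 56.2. Pgk1 was highest in RBX2iCKO replicate 1, at 226 FPKM, with the others at 219.8 to 221. The share of Pgam1 in Pgam1 plus Pgam2 was lowest in RBX2iCKO replicate 4, at 3.10%, with the others at 3.96% to 4.11%.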

How the results depend on the processing

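Scaling decided most of the calls. Of all genes, 4374 were higher in RBX2iCKO and 459 lower as deposited. Median-of-ratios scaling gave 1062 and 1512, removal of mitochondrial-encoded genes 1266 and 988, their fragments taken out of the denominator 2022 and 713, and a filter at 5 FPKM gave 2478 and 375 of the 7056 genes it kept. Of the 33 genes, 9 higher and 7 lower became 1 and 14, 2 and 12, and 5 and 9 in the same 3 settings. With a library left out, genes higher numbered 2895 (without WT replicate 2) to 4386 as deposited and 658 (without WT replicate 2) to 1288 after scaling. Members higher numbered 7 to 9 as deposited and 0 to 3 after scaling, and members lower 5 to 8 and 10 to 14. Pairs whose share passed numbered 0 to 7.

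Small positive differences turned negative. Scaling gave Gpi1 -0.053, Pfkl -0.22, Tpi1 -0.13, Pfkfb2 -0.12, Eno3 -0.26, Ldha -0.27, Gbe1 -0.22, Ugp2 -0.25 and Gyg -0.028. Without mitochondrial genes Pfkl was -0.15, Tpi1 -0.060, Pfkfb2 -0.0576, Eno3 -0.19, Ldha -0.20, Gbe1 -0.16 and Ugp2 -0.18. With their fragments out of the denominator Pfkl was -0.073, Eno3 -0.11, Ldha -0.12, Gbe1 -0.083 and Ugp2 -0.10. The title-number covariate gave Eno3 -0.00377 and Ugp2 -0.050. Of these only Gyg was called as deposited. Over the fits without a library, as deposited, Slc16a1 ran from -0.081 to 0.074, Pfkl from -0.043 to 0.14, Aldoa from -0.085 to 0.011, Pfkfb2 from -0.15 to 0.33, Eno3 from -0.022 to 0.075, Ldha from -0.023 to 0.042 and Ugp2 from -0.061 to 0.097. After scaling Slc2a1 ran from -0.089 to 0.10, Pfkfb2 from -0.40 to 0.082, Pfkfb3 from -0.096 to 0.18 and Gyg from -0.051 to 0.029.

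Slc2a4, Pfkfb1, Fbp2, Pygm and Phkg1 kept their calls in all 8 fits without a library on both scales. Without a filter the calls of Gapdh, Eno1, Ldhb and Gyg were lost (adjusted p up to 0.105), and with the title-number covariate those of Eno1 and Gyg. No paired analysis was possible because the title numbers are not shared between the groups and replicate numbers only name libraries. The cause of these shifts was not tested. Depth limits Aldoc most, with 0 to 18 fragments per library.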
